A study of Caenorhabditis elegans with 2 samples.

Results

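Cyclic GMP signalling genes were examined in glp-4 worms collected as L2, the second larval stage of the nematode Caenorhabditis elegans. The genes were those whose current symbol starts with gcy, cng or pde followed by a number, together with tax-2, tax-4, daf-11, odr-1, che-6 and egl-4. The reference gene table lists 48 such genes, and 43 of them had a probe assigned to them alone. Values were obtained on both arrays for 42 of these 43, out of 14777 genes measured on both arrays in all. gcy-8 had a value only on the preparation 2 array (0.11), and cng-2, cng-3, gcy-25, pde-6 and the pseudogene gcy-2 had no probe of their own. The members were 24 receptor guanylyl cyclases, 7 soluble guanylyl cyclases, 4 channel subunits, 6 phosphodiesterases and 1 protein kinase.

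Each of 2 microarrays with 2 channels carried messenger RNA of glp-4 L2 larvae, from preparation 1 or preparation 2, in channel 2. Channel 1 always held the same comparison material, a wild-type mixed messenger RNA pool. Loss of glp-4 function leaves worms with few germ cells at the restrictive temperature. The sources used here do not give the glp-4 allele, the growth temperature, the dyes, or the ages and sexes pooled in the reference. Genotype and stage both separate the channels, and the channels were not exchanged between the arrays. Effects of genotype, stage and channel therefore cannot be told apart. Preparation and array cannot be told apart either. Whether the preparations were separate worm cultures is not labelled. The p-values therefore reflect only how much 2 arrays varied, and that variation may be technical.

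Values are log2 ratios of the channels. They were read as glp-4 L2 over reference because the labels name the glp-4 sample first. This direction is likely but not stated, and every sign below would turn if it were wrong. The number of arrays limits the precision, and no intensities were used, so whether a probe lay above background is unknown. All 20 germ cell markers lay below 0 on both arrays, with medians of -2.63 in preparation 1 and -2.97 in preparation 2, and 10 of them were lower by limma at an adjusted p under 0.05. Cilium genes, which mark ciliated sensory neurons, had a median of 0.35 in preparation 1 and 0.26 in preparation 2 over 32 genes. Pan-neuronal markers had a median of 0.30 in preparation 1 and -0.63 in preparation 2 over 20 genes. None of the cilium or pan-neuronal genes passed the test. In RNA of whole worms, fewer cells of a type and less RNA per cell cannot be told apart.

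Cyclic GMP is the second messenger of many sensory neurons of the worm. Guanylyl cyclases make it, either as transmembrane receptors in the sensory cilium or as soluble haem proteins that sense oxygen. It opens cation channels built from the subunits TAX-2 and TAX-4 and activates the protein kinase EGL-4, and phosphodiesterases break it down. The pathway serves taste, smell, temperature, light, oxygen and carbon dioxide sensing and the decision to form a dauer larva.

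The comparison asks which of these genes stood above or below the mixed reference in glp-4 L2. The channel subunit gene cng-1 was higher in glp-4 L2, and it was the only member of the 42 to pass the test. It compares with 0.365% of all genes called higher (limma, Benjamini-Hochberg adjusted p under 0.05). No member was called lower, against 1.5% of all genes. At an unadjusted limma p under 0.05, 5 members (11.9%) were higher and 2 (4.76%) lower, against 7.78% and 10.9% of all genes. Most members lay close to the reference. On both arrays, 27 of 42 were within 2-fold of it, or 64.3%, against 54% of all genes.

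Over the members, log2 ratios had a median of 0.40 in preparation 1 and 0.17 in preparation 2, against 0.10 and 0.02 for all genes. Above 0 on both arrays were 25 members (59.5%), against 37% of all genes. Below 0 on both arrays were 9 members (21.4%), against 30.8% of all genes. The other 8 members (19%) had opposite signs on the arrays, against 32.2% of all genes. The interquartile range of the mean ratios was 0.82 for the members and 1.07 for all genes. These shares are descriptions, and no test was made over the members as a set.

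**Figure D1:**
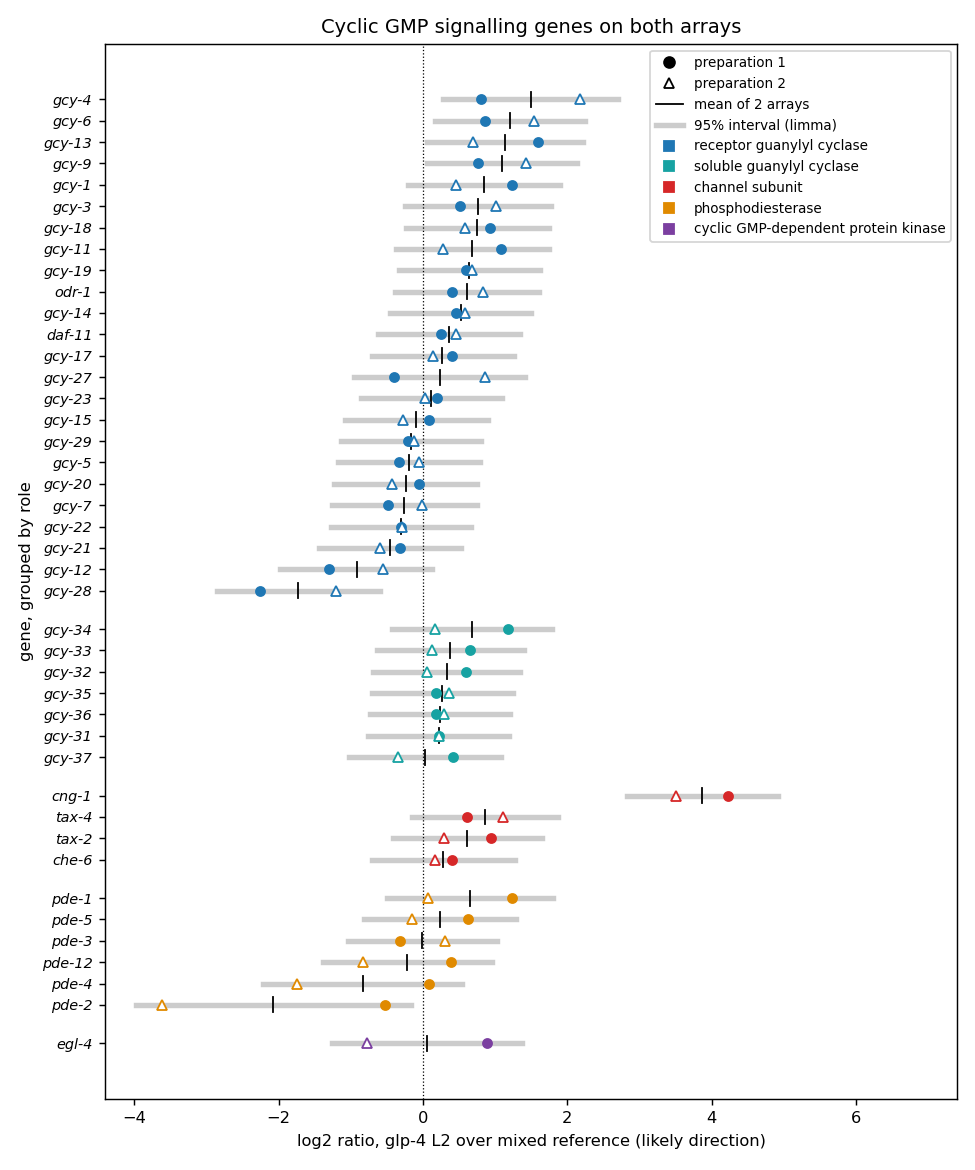
Log2 ratio of glp-4 L2 over the mixed reference (horizontal axis) for the 42 genes measured on both arrays, grouped by role. Filled circles are preparation 1, open triangles preparation 2, black ticks their mean and grey bars the 95% interval from limma. cng-1 stands at 4.22 and 3.51, while the next highest mean is that of gcy-4 at 1.49.

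Among the channels, cng-1 encodes a subunit of a cyclic nucleotide-gated channel. Its log2 ratio was 4.22 in preparation 1 and 3.51 in preparation 2, so both preparations stood far above the reference. The mean was 3.86 ± 0.50 (SD, n = 2), a 14.5-fold higher level in glp-4 L2 with a 95% interval of 2.82 to 4.91 on the log2 scale (limma adjusted p = 0.0257). It ranked 22 from the top among the 14777 genes. A single probe measured cng-1, so no second probe was there to check it.

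None of the other measured subunits passed the test. TAX-4 and TAX-2 together form the main transduction channel of salt, odour, temperature and oxygen sensing neurons. tax-4 was at 0.61 in preparation 1 and 1.11 in preparation 2, with a mean of 0.86 ± 0.35 (SD, n = 2, limma adjusted p = 0.319). tax-2 was at 0.94 in preparation 1 and 0.29 in preparation 2, with a mean of 0.61 ± 0.46 (SD, n = 2, limma adjusted p = 0.458). Both subunits were above 0 on both arrays, and the arrays gave them the opposite order. che-6, a further channel subunit gene of sensory neurons, was at 0.40 and 0.16 on the preparation 1 and 2 arrays. The 95% intervals of the means were -0.15 to 1.87 for tax-4, -0.42 to 1.65 for tax-2 and -0.70 to 1.27 for che-6. None of these reached the lower bound of cng-1, although the difference between genes was not tested.

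Of the 24 receptor guanylyl cyclases, 14 were above 0 on both arrays, 8 were below 0 on both and 2 had opposite signs. None passed the test over all genes. Their median was 0.32 in preparation 1 and 0.37 in preparation 2. The receptor cyclases DAF-11 and ODR-1 act in olfactory AWC neurons, and DAF-11 also controls dauer formation. daf-11 was at 0.25 in preparation 1 and 0.46 in preparation 2, which gave a mean of 0.36 ± 0.15 (SD, n = 2, limma adjusted p = 0.642). odr-1 was at 0.40 in preparation 1 and 0.83 in preparation 2, which gave a mean of 0.61 ± 0.31 (SD, n = 2, limma adjusted p = 0.446). Both were slightly above the reference on each array, with 95% intervals of -0.62 to 1.34 for daf-11 and -0.39 to 1.61 for odr-1.

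The highest receptor cyclase was gcy-4, expressed in the right-hand salt-sensing neuron ASER. It was at 0.81 in preparation 1 and 2.17 in preparation 2, with a mean of 1.49 ± 0.96 (SD, n = 2, limma adjusted p = 0.203). The next were gcy-6 of the left-hand salt-sensing neuron ASEL (mean 1.20 ± 0.48, SD, n = 2, limma adjusted p = 0.220), gcy-13 (1.14) and gcy-9, which serves carbon dioxide sensing in BAG neurons (1.09). Their values on the preparation 1 and 2 arrays were 0.86 and 1.54 for gcy-6, 1.59 and 0.69 for gcy-13, and 0.76 and 1.42 for gcy-9. These 4 genes lay above 0 on each array, and their 95% intervals overlapped one another. None was called by limma.

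The lowest receptor cyclase was gcy-28, which is expressed in many neurons and acts in interneurons during learning. It was at -2.25 in preparation 1 and -1.20 in preparation 2. The mean was -1.73 ± 0.74 (SD, n = 2), a level 3.31-fold lower in glp-4 L2, with an unadjusted 95% interval of -2.85 to -0.60 (limma adjusted p = 0.141). It was the only member at least 2-fold lower on both arrays, as 7.35% of all genes were, and it did not pass the test. gcy-12 followed at -1.30 in preparation 1 and -0.55 in preparation 2, and it was not called. The remaining receptor cyclases had means between -0.46 (gcy-21) and 0.85 (gcy-1).

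Among receptor cyclases assigned to the salt-sensing ASE neurons, none of 9 passed the test. Above 0 on both arrays were 5 of them, and below 0 on both were 4. The ASEL genes had means of 1.20 for gcy-6, 0.52 for gcy-14, -0.24 for gcy-20 and -0.26 for gcy-7. The ASER genes had means of 1.49 for gcy-4, 0.85 for gcy-1, 0.76 for gcy-3, -0.20 for gcy-5 and -0.30 for gcy-22. The 4 negative means were small, and their 95% intervals all held 0. For the thermosensory AFD neurons, gcy-18 was at 0.93 and 0.58 on the preparation 1 and 2 arrays, and gcy-23 was at 0.20 and 0.03.

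The soluble guanylyl cyclases had means close to one another. All 7 mean log2 ratios lay between 0.03 (gcy-37) and 0.68 (gcy-34), with an interquartile range of 0.13, and 6 of the 7 were above 0 on both arrays. None passed the test. GCY-35 and GCY-36 form the oxygen sensor of the URX, AQR and PQR neurons. gcy-35 was at 0.18 in preparation 1 and 0.36 in preparation 2, and gcy-36 at 0.18 in preparation 1 and 0.29 in preparation 2. GCY-31 and GCY-33 serve responses to falling oxygen in BAG neurons. gcy-31 was at 0.22 on both arrays, and gcy-33 at 0.65 in preparation 1 and 0.12 in preparation 2. The largest mean, that of gcy-34 (0.68 ± 0.71, SD, n = 2, limma adjusted p = 0.448), rested mainly on preparation 1 (1.18) and was at 0.17 in preparation 2. gcy-37 was the lowest, at 0.41 in preparation 1 and -0.35 in preparation 2, averaging 0.03 ± 0.54 (SD, n = 2, limma adjusted p = 0.978). gcy-32 was at 0.60 in preparation 1 and 0.06 in preparation 2.

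The phosphodiesterases and the kinase were where the preparations differed most. All 6 phosphodiesterase genes and egl-4 gave means that did not pass the test, and 4 of the 6 phosphodiesterases had opposite signs on the arrays. Their median was 0.23 in preparation 1 and -0.49 in preparation 2. Without pde-12, which may not belong to the pathway, the median was 0.08 in preparation 1 and -0.15 in preparation 2. Of those 5 genes, 3 had opposite signs. pde-2 was at -0.53 in preparation 1 and -3.61 in preparation 2, so its mean of -2.07 ± 2.18 (SD, n = 2, limma adjusted p = 0.242) was set mostly by preparation 2. It had the lowest mean of all members and the widest 95% interval, -3.97 to -0.16, which is not adjusted for the number of genes tested. pde-4, whose relatives in other animals are specific for cyclic AMP, was at 0.08 in preparation 1 and -1.75 in preparation 2. The calcium-dependent type pde-1 had the highest mean of the class, 0.65 ± 0.82 (SD, n = 2, limma adjusted p = 0.478), with 1.23 in preparation 1 and 0.07 in preparation 2.

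pde-5 was at 0.62 in preparation 1 and -0.15 in preparation 2, and pde-3 at -0.32 in preparation 1 and 0.30 in preparation 2. pde-12 entered by its name. Human PDE12 degrades RNA and oligoadenylates rather than cyclic nucleotides, so pde-12 may not belong to the pathway. It was at 0.39 in preparation 1 and -0.83 in preparation 2.

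EGL-4 is the cyclic GMP-dependent protein kinase that controls olfactory adaptation, body size and quiescence. egl-4 was at 0.89 in preparation 1 and -0.77 in preparation 2, on opposite sides of the reference. Its mean of 0.06 ± 1.17 (SD, n = 2, limma adjusted p = 0.960) had a 95% interval of -1.26 to 1.37. The arrays differed by more than 1 log2 unit for 9 of the 42 members (21.4%), against 30.9% of all genes. The median SD between the arrays was 0.28 for receptor cyclases, 0.37 for soluble cyclases, 0.41 for channel subunits and 0.84 for phosphodiesterases, against 0.45 for all genes. Lower in preparation 2 than in preparation 1 were egl-4 and 5 of the 6 phosphodiesterases. Of the 24 receptor cyclases, 9 were lower in preparation 2 and 15 were higher. The median of the pan-neuronal markers was also lower in preparation 2 than in preparation 1, and their median SD was 0.79. Singly, 13 of the 20 markers were lower in preparation 2 and 7 were higher, against 7351 and 7416 of all 14777 genes. Whether the difference in the markers bears on egl-4 or the phosphodiesterases was not tested.

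**Figure D2:**
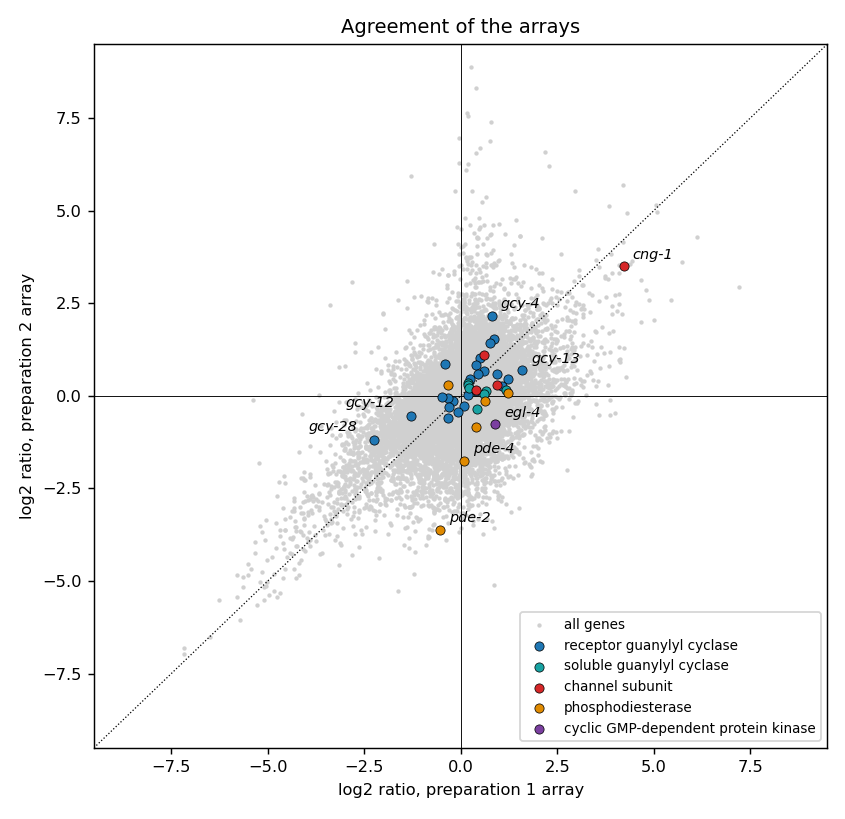
Log2 ratio on the preparation 1 array (horizontal) against the preparation 2 array (vertical) for all 14777 genes (grey) and the cyclic GMP genes (coloured by role). The dotted line marks equal values. cng-1 lies near it at 4.22 and 3.51, whereas pde-2 (-0.53 and -3.61) and egl-4 (0.89 and -0.77) lie well below it.

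Other genes that act with the pathway were taken from a separate list of 29 genes, which included sensory G protein subunits, regulators of G protein signalling, calcineurin and targets of EGL-4. Of these, 26 were measured, and none passed the test in either direction. At 9 genes both arrays were above 0, at 7 both were below and at 10 the signs differed. Their median stood at 0.22 in preparation 1 and at -0.40 in preparation 2. By size the largest absolute mean was that of hda-4, a class II histone deacetylase acted on by EGL-4, at -2.01 in preparation 1 and -1.13 in preparation 2, averaging -1.57 ± 0.63 (SD, n = 2, limma adjusted p = 0.157). The highest was gpa-5, a sensory G protein alpha subunit, which was at -0.11 in preparation 1 and 2.55 in preparation 2, averaging 1.22 ± 1.88 (SD, n = 2, limma adjusted p = 0.386).

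Transcription factors that set the identity of these sensory neurons were taken from a further list. Of 16 listed, 14 were measured and none passed the test. At 5 genes both arrays were above 0, at 4 both were below and at 5 the signs differed. The interquartile range of their means was 1.13, against 1.07 for all genes. Their median stood at 0.03 in preparation 1 and at 0.14 in preparation 2. The 2 largest absolute means belonged to lim-6 (-1.03 ± 0.86) and cog-1 (-0.82 ± 0.65), both of which act in the left-right difference of the ASE neurons (SD, n = 2, limma adjusted p = 0.306 and 0.361).

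**Figure D3:**
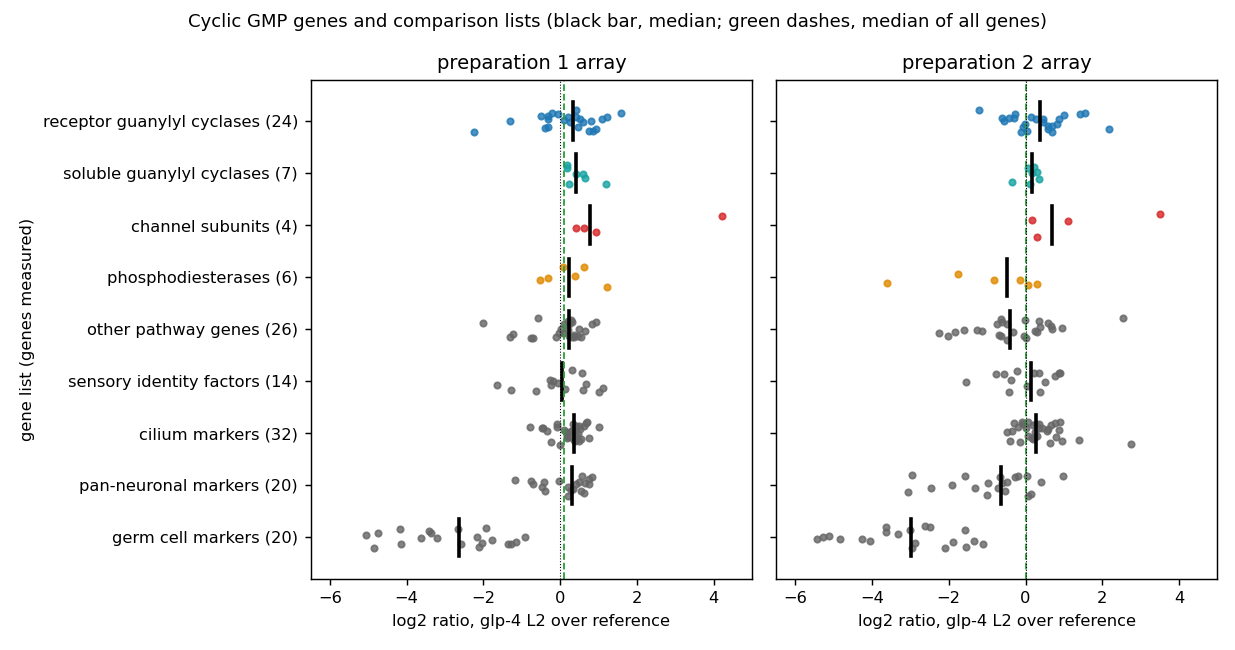
Log2 ratio of glp-4 L2 over reference (horizontal axis) for the genes of each role and each comparison list, with 1 panel per array. Each point is a gene, black bars are list medians and green dashes the median of all genes. Germ cell markers lie at medians of -2.63 and -2.97, cilium markers at 0.35 and 0.26, and pan-neuronal markers at 0.30 and -0.63 on the preparation 1 and 2 arrays.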

How the data were processed

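The values deposited by the authors were read as log2 ratios between channels, 1 for each probe on each array. Base 2 was inferred, since raising 2 to a value gave a whole step of 0.001 (tolerance 0.002 steps) in 99.1% of cases for preparation 1 and 98.8% for preparation 2. The sources used here do not give the scanner, background correction or scaling. The table lists 21632 probes. The platform annotation gave 1 gene to 16450, several to 247 and none to 4935, and only the first kind was used. Current symbols came from the WBcel235 RefSeq table, matched on Entrez ID, which held 16360 of these probes. Probes of a gene were averaged per array, and values were not rescaled. Each mean was tested against 0 over all 14777 genes with limma 3.58.1 in R 4.3.3 (intercept fit, eBayes, Benjamini-Hochberg, threshold 0.05). Per gene it had 1 residual and 4.52 prior degrees of freedom, and it leaves out the spread of the reference. The test was checked only on simulated independent genes with large shifts. How it performs at the smaller ratios of most members was not checked.

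Members and lists were chosen with earlier results of these data known. Any member could be named. Statistics were given for members past the threshold, the 5 largest absolute means, tax-2, tax-4, egl-4, daf-11 and odr-1, and the extremes of each role. From the list of other pathway genes and that of identity factors, genes past the threshold were named, or the 2 largest absolute means. Alternatives covered scaling, the variance prior, extreme ratios, probes per gene, gene span and each preparation left out.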

Additional observations from a re-analysis of the deposited data

How the results depend on the processing

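The count of members called stayed at 1 higher (cng-1) and 0 lower under all 7 alternatives with a test. The mean of cng-1 ranged from 3.80 to 4.08. Its limma adjusted p was 5.7e-09 with the trended and robust prior alone, and from 0.00686 to 0.0394 under the other alternatives. In the trended setting the variance trend followed the absolute log2 ratio, not intensity, and the prior degrees of freedom reached infinity. Its p of 5.7e-09 should therefore not be read as stronger support. The members' median of 0.27 was 0.48 after correction for gene span, and lay between 0.17 and 0.40 with either preparation left out. The receptor cyclase median of 0.31 was 0.54 after span correction and 0.52 over genes with 1 probe. It was 0.25 with arrays centred and 0.37 without preparation 1. The channel subunit median of 0.74 was 0.85 after span correction and 0.68 with arrays centred. Span correction also turned the means of pde-3 (to 0.44), gcy-29 (0.03) and gcy-15 (0.03) and the phosphodiesterase median (0.13). Centring each array turned gcy-37 (-0.03) and egl-4 (0.00), the sole kinase. None of the genes that turned was called, and the cause was not tested. Over all genes 275 were called, against 467 with arrays centred, 605 after quantile normalization, 417 with a trended and robust prior, 140 with ratios limited to 5 and 523 after span correction. With 1 preparation left there is no test, so no count of calls was made. No paired analysis was possible because there is 1 group, and the reference was hybridised on each array. Unknown signal over background limits the reading of ratios near 0.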

Other observations

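Neighbouring members did not always share a value. gcy-4 and gcy-5 lie on chromosome II with 1 protein-coding gene between them in the WBcel235 gene table. gcy-4 was at 0.81 and 2.17 on the preparation 1 and 2 arrays, whereas gcy-5 was at -0.33 and -0.06. gcy-3 and gcy-1 are adjacent protein-coding genes on the same chromosome, with the pseudogene gcy-2 nearby. gcy-3 was at 0.51 and 1.01, and gcy-1 at 1.23 and 0.46. A pair of probes that the annotation gives to gcy-1 and gcy-2 together was not used for either. The first of them was at 0.52 and 0.06 and the second at 1.25 and 1.59. RNA of closely related copies can bind the same probe, so the values of gcy-1 are uncertain. Whether such binding took place was not tested for gcy-1, gcy-3, gcy-4 or gcy-5. pde-1 and gcy-35 are adjacent on chromosome I, and both were above 0 on each array.

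The cng-1 locus on chromosome V was not high as a whole. Of the 5 protein-coding genes on either side, 9 had a value on both arrays. The adjacent gene eakr-3 was at 0.83 and 0.35, and obr-2 at -1.07 and -1.41. The highest of the 9 was C25D7.5, at 1.98 and 2.45. These genes were named after their values were seen.

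All 4 members with several probes (gcy-15, gcy-27, gcy-29 and pde-3) had probes of opposite sign on at least 1 array. The first gcy-29 probe was at -0.01 in preparation 1 and 0.02 in preparation 2, and the second at -0.41 and -0.28. The first gcy-27 probe was at 0.13 in preparation 1 and 2.58 in preparation 2, and the second at -0.94 and -0.86. The first gcy-15 probe was at -0.09 and 0.08, and the second at 0.27 and -0.62. The pde-3 probes were close in preparation 1 (-0.35 and -0.28) and apart in preparation 2 (0.93 and -0.34). The means of these genes therefore rest on probes that differ.

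Among pan-neuronal markers, the neuropeptide-processing genes egl-21 and egl-3 differed most between the preparations, as singled out after their values were seen. egl-21 was at 0.20 in preparation 1 and -3.05 in preparation 2, and egl-3 at 0.19 and -2.95. Cilium genes differed less, with a median SD of 0.26 against 0.79 for the pan-neuronal markers.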
